A study of Mus musculus with 12 samples.

Results

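The genes described here were 10 core genes of the Notch pathway in mouse bone mesenchymal stem cells (MSCs): the receptors Notch1, Notch2, Notch3 and Notch4, the ligands Jag1, Jag2, Dll1 and Dll4, and the target genes Hes1 and Hey1. They were listed by name, and for each gene every deposited peak that touched the gene body or the 20000 bp on either side of it, together called the gene window, was read (mm10, GENCODE annotation). Gene starts are those of the annotation's basic transcripts, and an annotated gene body can reach beyond them. The 10 genes were taken from 21951 protein-coding genes, and their windows held 24 of the 22555 distinct peak intervals of the series. Chromatin immunoprecipitation sequencing (ChIP-seq) had been carried out for histone H3 acetylated at lysine 27 (H3K27ac) and trimethylated at lysine 4 (H3K4me3) in cells of C57BL6/N mice aged 3-5 months. The cells came from the hind-limb bones and were kept at 2% O2, called hypoxia, or at 21% O2, called normoxia, both with 5% CO2. The methods describe outgrowth at 2% O2, a sort for CD45-/Ter-119-/Sca-1+/CD140a+ cells and only then the division between the oxygen levels, whereas the labels name either level from the start and the sort on day 12. There were 12 libraries in 6 groups of 2, with H3K27ac, H3K4me3 and input at each oxygen level, and no genetic change in any group. Each of the 4 peak lists was made from both libraries of its group, so the spread between replicates and the read depth are unknown, no difference was tested, and the comparisons below set calls of 1 list beside calls of another.

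Notch signalling passes between touching cells. A ligand of the Jagged or Delta-like family on one cell binds a Notch receptor on its neighbour, the receptor is cut by proteases, and its freed intracellular part enters the nucleus. There it joins the DNA-binding protein RBPJ and a Mastermind coactivator and turns on repressors of the Hes and Hey families. In the bone marrow, Notch activity in stromal cells is known for holding back osteoblast differentiation, and stromal Jag1 for its part in the haematopoietic niche. H3K4me3 marks gene starts, mostly those rich in CpG dinucleotides, and H3K27ac marks active starts and enhancers.

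The starts of the 10 genes fell into 3 classes. H3K27ac and H3K4me3 were both called within 1000 bp of a transcription start, in hypoxia and normoxia alike, at Notch2, Jag1 and Hes1, a state held by 35.8% of all coding genes. H3K4me3 without H3K27ac was called at 6 starts, those of Notch1, Notch3, Jag2, Dll1, Dll4 and Hey1, beside 22.4% of coding genes. Notch4 carried neither mark at its start, as did 39.9% of coding genes. Taken mark by mark, H3K27ac was called at 3 of the 10 starts in each list, beside 37.6% of coding genes in hypoxia and 37.0% in normoxia, and H3K4me3 at 9 of the 10, beside 58.9% in hypoxia and 58.9% in normoxia. No start gained or lost a call between the oxygen levels. A start without a call is one for which no peak was listed, which at unknown depth does not show that the mark was absent.

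Promoter sequences are shown for 5 genes, so that the classes can be read next to each other: Notch2 and Jag1 with both marks, Notch3 and Dll4 with H3K4me3 alone, and Notch4 with neither. Each is the longest stretch before the RefSeq start that lies outside every annotated exon, printed 5′ to 3′ in the direction of transcription, with each CG dinucleotide in capitals. The sequences are from RefSeq (GRCm38.p6). Of the 10 genes, 8 were matched in its promoter table, and Hes1 and Hey1 were not.
Notch2, chr3:98013288-98013526, plus strand: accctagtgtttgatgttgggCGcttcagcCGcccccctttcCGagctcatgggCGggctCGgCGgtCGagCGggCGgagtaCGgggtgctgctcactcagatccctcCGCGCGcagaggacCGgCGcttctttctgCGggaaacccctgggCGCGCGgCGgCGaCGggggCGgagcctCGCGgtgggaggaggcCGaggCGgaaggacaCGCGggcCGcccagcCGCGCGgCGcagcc
Jag1, chr2:137116645-137116770, minus strand: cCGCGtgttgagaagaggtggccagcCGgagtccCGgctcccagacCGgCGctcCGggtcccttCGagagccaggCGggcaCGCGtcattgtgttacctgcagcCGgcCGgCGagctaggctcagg
Notch3, chr17:32166891-32167140, minus strand: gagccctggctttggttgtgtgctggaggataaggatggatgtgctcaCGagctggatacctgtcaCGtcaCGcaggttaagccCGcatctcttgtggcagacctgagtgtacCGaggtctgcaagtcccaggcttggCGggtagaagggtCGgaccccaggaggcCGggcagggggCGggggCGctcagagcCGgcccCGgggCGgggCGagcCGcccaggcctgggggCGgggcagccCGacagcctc
Dll4, chr2:119325565-119325783, plus strand: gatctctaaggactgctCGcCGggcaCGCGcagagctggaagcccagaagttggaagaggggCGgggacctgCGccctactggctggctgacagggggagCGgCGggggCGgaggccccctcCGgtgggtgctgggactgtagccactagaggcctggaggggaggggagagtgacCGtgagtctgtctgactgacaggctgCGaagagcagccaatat
Notch4, chr17:34564045-34564267, plus strand: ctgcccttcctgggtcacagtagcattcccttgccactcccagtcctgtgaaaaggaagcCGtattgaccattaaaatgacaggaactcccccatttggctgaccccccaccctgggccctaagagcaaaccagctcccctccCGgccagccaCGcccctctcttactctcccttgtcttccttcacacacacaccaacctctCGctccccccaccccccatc

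The stretch of Notch2 held 34 CG dinucleotides in 239 bases and that of Jag1 held 14 in 126. Notch3 had 17 in 250 bases and Dll4 had 12 in 219, while Notch4 had 4 in 223. The unmarked start was thus the CpG-poor one of the 5, and the starts with and without acetylation were both CpG-rich.

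By count, the 5 genes kept the same order over full promoter windows, from 250 bases before to 50 after the RefSeq start. The printed stretches differ in length, so their counts are not on an equal footing, whereas the windows are. The median over the 32851 promoters of the table was 7 CG dinucleotides and a GC content of 52.7%. Notch4 had 5 and was the one of the 8 matched genes below that median, with an observed-to-expected CpG ratio of 0.214. Among the H3K4me3-only starts, Dll4 had 17 CG dinucleotides, Notch1 had 23, Notch3 had 25, Jag2 had 63, and the pair of Dll1 promoters had 15 and 24. The acetylated starts of Jag1 and Notch2, with 22 and 41, lay inside the range of the H3K4me3-only starts. Jag2 was the most CpG-rich of them, at 86.0% GC and an observed-to-expected ratio of 1.14.

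**Figure D1:**
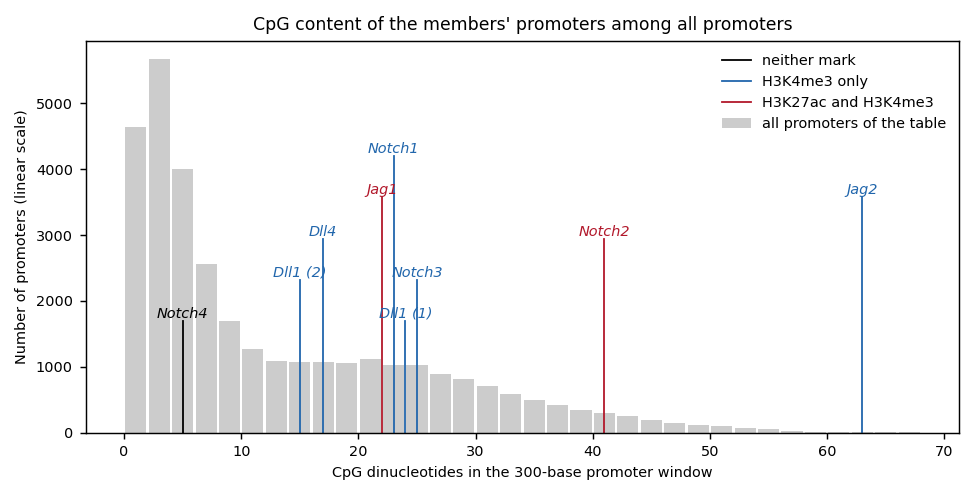
Number of CG dinucleotides in the 300-base promoter window of 8 members (vertical lines, coloured by the marks called on the window) over the histogram of all 32851 promoters. Notch4, with neither mark, stands at 5, and the acetylated starts of Jag1 and Notch2, at 22 and 41, lie among the H3K4me3-only starts, which run from 15 to 63; line heights only separate the names, and Dll1 has 2 promoters.

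The promoter windows were searched on both strands for short motifs. GTGGGAA and the shorter TGGGAA that it contains, the core bound by RBPJ, were in none of the 8 matched members' windows, while 6.38% and 25.6% of all promoters held them. In the longer window of 1000 bp on each side of the start this no longer held, with GTGGGAA in 4 of the 8 beside 36.3% of all promoters and TGGGAA in 7 beside 85.9%. CACGTG, the E-box letters, was likewise in none, beside 7.15% of all promoters, and in the longer window in 2 of the 8 beside 27.2%. ACGTG, the core bound by hypoxia-inducible factors and part of CACGTG, occurred in 1 member, with 2 matches at Notch3, beside 19.6% of all promoters, and in the longer window in 6 of the 8 beside 68.0%. GCGTG, the other form of that core, occurred in 8 of 8 members, with 1 or 2 matches per window, beside 32.4% of all promoters. In the longer window it was again in 8 of the 8, beside 74.0%. A match describes letters only, and GCGTG and ACGTG each hold a CG dinucleotide, so that their frequency moves with CpG content.

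Across the windows, 11 H3K27ac peaks were listed in hypoxia and 13 in normoxia, and 19 H3K4me3 peaks in each. Of the 24 distinct intervals, 11 carried H3K4me3 alone, 8 both marks and 3 H3K27ac alone, each at both oxygen levels, and 2 carried H3K27ac in normoxia only. These were 45.8%, 33.3%, 12.5% and 8.33% of the 24, where the same states made up 31.6%, 32.3%, 32.5% and 0.865% of all 22555 intervals. H3K27ac alone had a lower share in the windows than in the whole series, and both marks together were near their share there. The whole-series shares are not limited to gene windows, and shares in the windows of other genes were not computed. The nearest coding start was that of the Notch gene itself for 16 of the 24, or 66.7%. The other 8 were nearest to a neighbouring gene and are named as such. H3K27ac covered 15.8% of the summed windows in hypoxia and 17.8% in normoxia, and H3K4me3 covered 9.29% in both. The median member had 7.14% of its window under H3K27ac in hypoxia and 7.79% in normoxia. The median coding gene had 2.55% and 2.44%, and the median windows were 63.1 and 57.4 kb. These shares include peaks over the starts of neighbouring genes, for members and for all coding genes, so they do not measure acetylation of the Notch genes alone. Among the members they ran from 0 to 42.7% in each list.

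**Figure D2:**
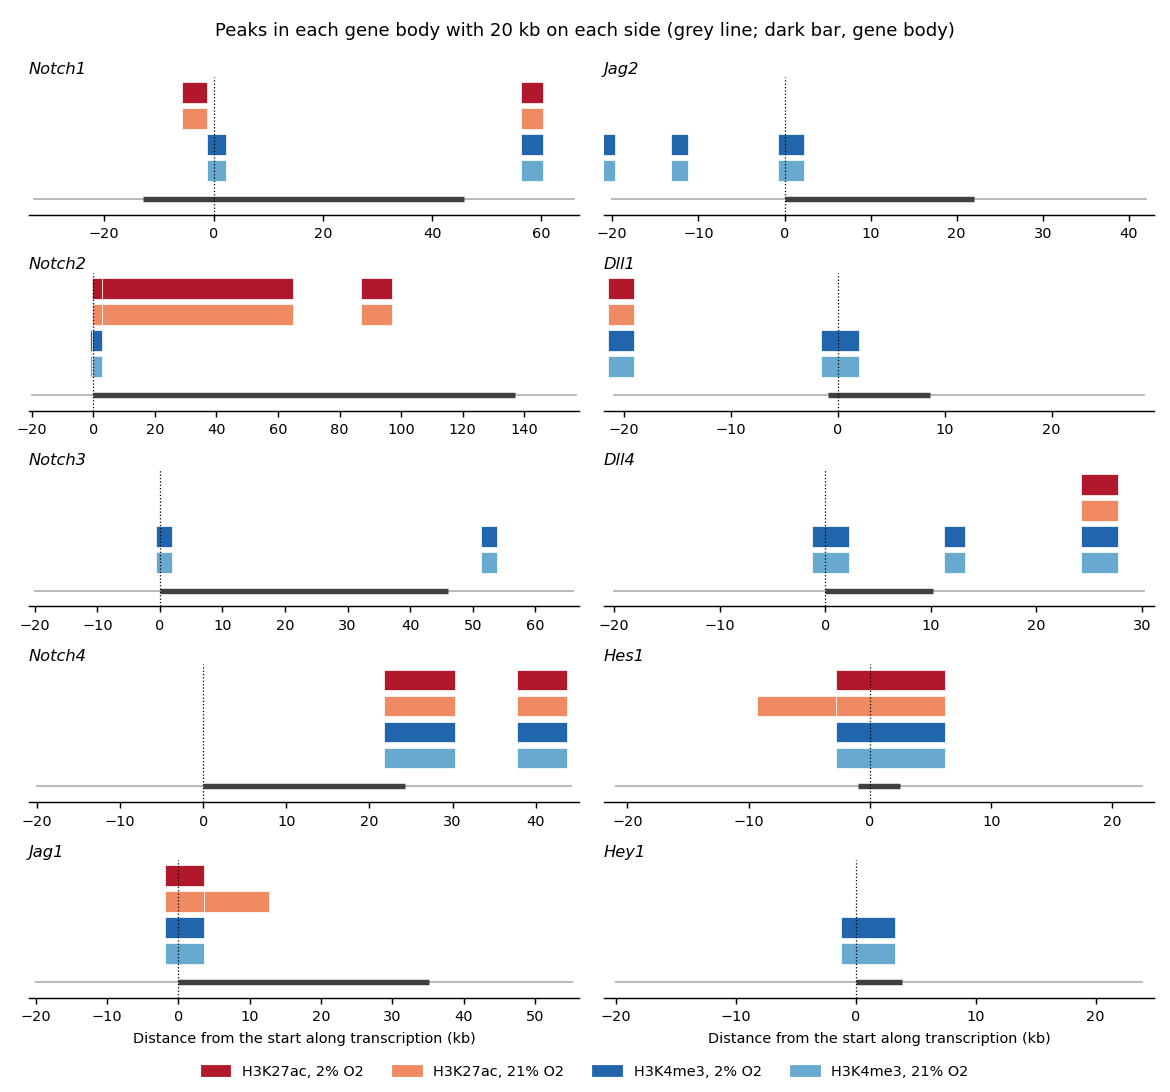
Peaks in the window of each member, by distance from the gene's start along transcription (kb), with 1 row per peak list and the gene body as a dark bar. Notch2, Jag1 and Hes1 are acetylated over their starts, the 6 starts with blue bars alone are those of Notch1, Notch3, Jag2, Dll1, Dll4 and Hey1, and Notch4 has no bar at its start; only Jag1 and Hes1 differ between the oxygen levels.

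Notch2 was the most heavily acetylated receptor gene (chr3:98013527-98150361, plus strand). A peak with both marks covered its start, chr3:98013001-98016500, including exon 1 of 34. Directly after it ran a single H3K27ac peak of 62000 bp without H3K4me3, from intron 1 to intron 4, with 1.09% of its length in exons. Only 49 of the 15203 hypoxia H3K27ac peaks were wider, and 49 of the 14832 in normoxia. Joined to the peak at the start it made an acetylated stretch of 65500 bp in both lists. Its ends were the same in each, as were those of all 14614 H3K27ac peaks shared by the lists. A further H3K27ac peak of 10000 bp lay from intron 8 to intron 12, for which the nearest coding start, at 50160 bp, was that of Adam30, a gene of the ADAM protease family without either mark at its start. In all, H3K27ac covered 75.5 kb of the Notch2 window, or 42.7%, at each oxygen level.

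Notch1, the best studied receptor of the family (chr2:26457903-26516663, minus strand), had H3K4me3 over its start, chr2:26501501-26505000, and no H3K27ac there. An H3K27ac peak of 4500 bp began where the H3K4me3 peak ended, with its near edge 1179 bp upstream of the start and outside all exons of the basic transcripts. The peak lay wholly inside the annotated gene body, which reaches beyond that start. It was in both lists, so that Notch1 counted as acetylated only when the distance from the start was widened to 2500 bp. The other peak of the window, 56322 bp downstream of the start, carried both marks and lay over the start of Sec16a, which encodes a protein of endoplasmic reticulum exit sites.

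Notch3, a receptor typical of mural and mesenchymal cells (chr17:32120820-32166852, minus strand), had no H3K27ac peak in its window. Its start carried H3K4me3 over 2500 bp, and the nearest H3K27ac peak of either list was 36149 bp from it. A second H3K4me3 peak lay past the 3′ end of the gene, 51352 bp from the start, and had no closer coding start. Notch4, a receptor found mainly in endothelium (chr17:34564268-34588503, plus strand), had its nearest peak of any kind 21733 bp downstream of its start. That peak, of 8500 bp with both marks, touched exons 27 to 30 of Notch4 but covered the starts of Gpsm3 and of the homeobox gene Pbx2. The last peak of its window, also with both marks, covered the starts of Agpat1 and of the ubiquitin ligase gene Rnf5. The 22.6% of the Notch4 window under H3K27ac thus lay over the starts of other genes.

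Of the ligand genes, Jag1 alone was acetylated at its start. Jag1 encodes a membrane ligand of the Jagged family and lies at chr2:137081456-137116644 on the minus strand. A peak of both marks at chr2:137113001-137118500 covered exons 1 and 2 of 26 in both lists. Its other peak was listed in normoxia only and is described with that of Hes1.

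Jag2, the other Jagged ligand (chr12:112907819-112929776, minus strand), had 3 H3K4me3 peaks in its window and no H3K27ac, the nearest of which was 45725 bp from the start. A single one of the 3, of 3000 bp, covered its own start. The other two, at 11225 and 19725 bp upstream, were nearest to Nudt14, a gene of the nudix hydrolase family that also had H3K4me3 without H3K27ac at its start.

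Dll1 (chr17:15367354-15376872, minus strand) and Dll4 (chr2:119325784-119335962, plus strand) encode Delta-like ligands, the second known for its part in vessel sprouting. Each had an H3K4me3 peak of 3500 bp over its start with no H3K27ac. The acetylated peak in the Dll1 window, 19025 bp upstream, covered the start of Fam120b. The acetylated peak in the Dll4 window, 24217 bp downstream, covered the start of Chac1, which encodes an enzyme that degrades glutathione. Dll4 had a further H3K4me3 peak of 2000 bp at 11217 bp downstream, past its 3′ end, for which no other coding start was nearer.

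The target genes Hes1 and Hey1 encode transcriptional repressors of the basic helix-loop-helix class and differed from each other. Hes1 (chr16:30064384-30067796, plus strand) lay whole inside a peak of both marks, 9000 bp wide, at chr16:30062501-30071500. Hey1 (chr3:8663359-8667256, minus strand) carried an H3K4me3 peak of 4500 bp that reached from its start into exon 5. The nearest H3K27ac peak to the start of Hey1 was 98745 bp away, farther than for any other member.

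**Figure D3:**
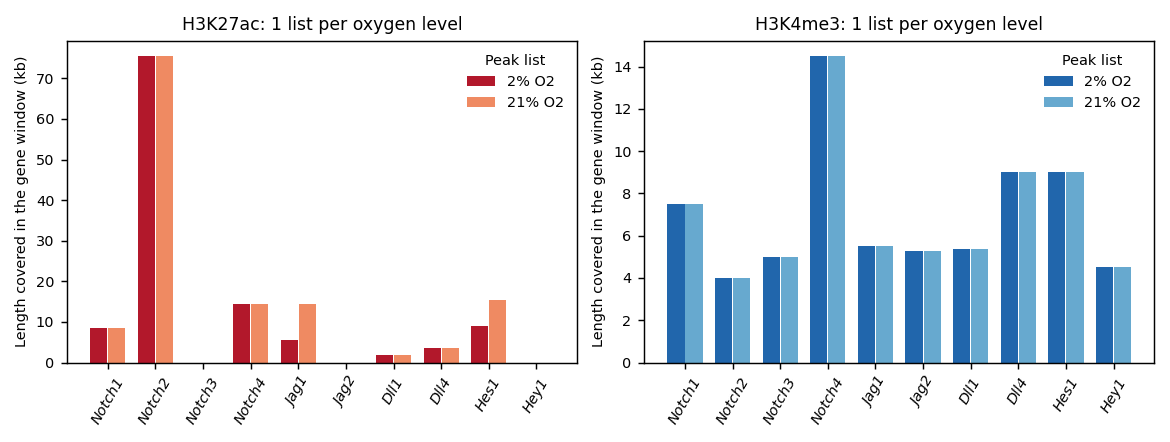
Length of each member's window under peaks (kb, linear axes from 0), for H3K27ac and H3K4me3 at 2% and 21% O2, with 1 list per bar and therefore no error bar. H3K27ac covers 75.5 kb at Notch2 in both lists, is 5.5 and 14.5 kb at Jag1 and 9.0 and 15.5 kb at Hes1 in hypoxia and normoxia, and is 0 at Notch3, Jag2 and Hey1; the H3K4me3 bars are equal at both oxygen levels for all 10 genes.

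The H3K27ac lists of the oxygen levels differed at 2 of the 10 genes, Jag1 and Hes1. At both, H3K27ac reached farther from the start in normoxia than in hypoxia. No hypoxia-only H3K27ac peak lay in the window of any member, where 4.7% of all coding genes had one. A normoxia-only peak lay in the windows of 2 of the 10, where 1.15% of all coding genes had one, and 1.1% of the 17527 coding genes with windows of 43.4 to 177 kb, the range of the members. For H3K4me3 no member had a peak specific to either oxygen level, beside 0.0638% of coding genes.

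At Jag1 the normoxia-only peak was chr2:137104001-137113000, 9000 bp within the gene body. It started 3644 bp downstream of the start, reached from intron 2 to intron 3 and held exon 3, whose 52 bp were 0.578% of its length. It touched the shared peak at the start, so that the acetylated stretch was 14500 bp long in normoxia and 5500 bp in hypoxia. At Hes1 the normoxia-only peak was chr16:30056001-30062500. It was 6500 bp wide, lay upstream of the gene and ended 2840 bp before the start. No annotated coding gene lay in it. It too touched the shared peak, and the acetylated stretch was 15500 bp long in normoxia and 9000 bp in hypoxia. The added part thus lay on the downstream side at Jag1 and on the upstream side at Hes1.

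**Figure D4:**
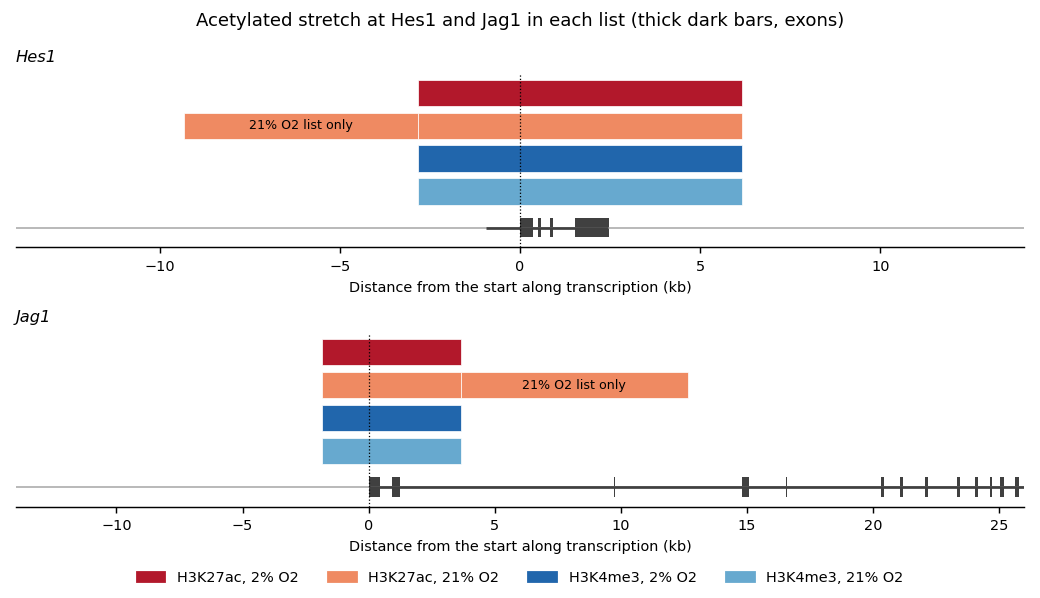
H3K27ac and H3K4me3 peaks at Hes1 and Jag1 in each of the 4 lists, by distance from the start along transcription (kb), with exons as thick dark bars on the gene line. In the 21% O2 list H3K27ac extends 6500 bp farther upstream at Hes1 and 9000 bp farther downstream at Jag1, where it spans exon 3. The H3K4me3 bars have the same ends at both oxygen levels, as every shared peak of the series does.

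An acetylated start whose stretch was longer in normoxia in this way, by a normoxia-only peak touching a peak shared by both lists at the start, was seen in 61 coding genes, or 0.278%, of which 2 were members. The opposite, a stretch longer in hypoxia, was seen in 212 coding genes, or 0.966%, of which none was a member. Over the whole series 63 of the 218 normoxia-only peaks, or 28.9%, touched a shared peak. Among those 218, 22 were wider than the peak at Jag1 and 39 wider than that at Hes1.

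The deposited score of each peak ran from 50 to 160, with a further value of 1000. The normoxia-only peak at Jag1 had a score of 51, and 167 of the 218 normoxia-only peaks scored higher. That at Hes1 had a score of 95, and 5 scored higher, the highest at 116. The median normoxia-only score was 56. The peak at Jag1 was therefore close to the lowest score that the list holds, and the one at Hes1 was not. Without the lowest-scoring 25% of each list, Hes1 was still extended in normoxia and Jag1 was not.

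For H3K27ac peaks present in both lists the scores can be set beside each other, with no test. Of the 11 such peaks in the windows, 5 had equal scores, among them 4 at 1000, 3 scored higher in hypoxia and 3 higher in normoxia. The peak over Hes1 had a score of 103 in hypoxia and 1000 in normoxia. The peak upstream of the Notch1 start went the other way, with 1000 in hypoxia and 98 in normoxia. The intronic peak of 10000 bp in Notch2 had 59 and 101, and the peak over Chac1, in the Dll4 window, 118 and 1000. The peaks over the starts of Notch2 and Jag1, and the peak of 62000 bp in Notch2, had 1000 in both lists. Over all 14614 shared H3K27ac peaks, the score was equal at 6365, higher in hypoxia at 5824 and higher in normoxia at 2425. H3K4me3 scores were the same in both lists at all 14600 shared peaks. Of the H3K4me3 peaks scored under 1000, 73.6% were within 1 of the median score of such peaks in their 10-Mb stretch of chromosome. The H3K4me3 score, 1000 at Notch2 and Hey1 and 121 to 135 at the other 7 marked starts, was therefore not used to rank the genes.

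Base composition set the added stretches apart from the starts they touched. The normoxia-only peak at Jag1 had a GC content of 46.2% and 9.22 CG dinucleotides per kb, against 56.8% and 52.5 per kb in the shared peak at its start. At Hes1 the values were 47.6% and 11.5 per kb in the normoxia-only peak and 55.7% and 52.0 per kb in the shared one. Over all 195 normoxia-only H3K27ac peaks without H3K4me3 the medians were 43.5% and 9.22 per kb, and over the 7338 H3K27ac-only peaks of both lists 45.2% and 10.5 per kb. The peak of 62000 bp in Notch2, at 45.9% and 12.2 per kb, and the peak upstream of the Notch1 start, at 52.2% and 10.9 per kb, were CpG-poor in the same way. The H3K4me3-only peaks at the starts of Jag2 and Hey1 had 93.0 and 54.0 per kb, where the median of the 7125 intervals with H3K4me3 alone was 33.5.

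The letters GTGGGAA occurred 4 times in the normoxia-only peak at Jag1. They are shown because the stretch is called in one list alone and the letters are those that RBPJ binds. Each match is printed with 40 bases on each side, in the direction of Jag1 transcription, read from the GRCm38.p6 genome, with the match in capitals. The matches on the opposite strand appear as TTCCCAC and the one on the strand of the gene as GTGGGAA, and none of the 4 stretches touches an annotated exon.
Jag1, chr2:137105965-137106051: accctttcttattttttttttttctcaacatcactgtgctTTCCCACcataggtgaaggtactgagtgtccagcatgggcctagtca
Jag1, chr2:137106394-137106480: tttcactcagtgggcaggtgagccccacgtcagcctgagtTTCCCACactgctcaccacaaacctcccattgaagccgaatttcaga
Jag1, chr2:137108120-137108206: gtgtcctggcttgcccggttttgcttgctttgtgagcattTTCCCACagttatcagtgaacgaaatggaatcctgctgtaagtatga
Jag1, chr2:137111297-137111383: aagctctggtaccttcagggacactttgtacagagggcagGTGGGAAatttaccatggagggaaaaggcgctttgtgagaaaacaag

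A peak of this length often holds such letters. Of the 184 H3K27ac peaks of 9000 bp, 82.1% held GTGGGAA at least once and 16.8% held it 4 times or more, with a median of 2. The normoxia-only peak at Hes1 held it 3 times. Of the 332 peaks of 6500 bp, 74.4% held it and 19.9% held it 3 times or more. A match is no evidence of binding.

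The rest of the pathway was read from 8 lists with 54 further genes, using the same calls. H3K27ac was at the start of 35 of the 54 in hypoxia and 36 in normoxia, where 37.6% and 37.0% of all coding genes had it. H3K4me3 was at 49 in each list, where 58.9% of all coding genes had it. H3K4me3 without H3K27ac was at 13 starts, beside 22.4% of coding genes, and 5 starts carried neither mark, beside 39.9%. The share with H3K27ac differed from list to list.

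All 8 corepressor genes had H3K27ac at a start. So did 8 of the 9 genes of receptor processing, the exception being Psen2, which encodes a catalytic subunit of γ-secretase. Of the nuclear complex, 7 of 8 were acetylated, all but the acetyltransferase gene Kat2a. Of the regulators of the receptor, 6 of 8 were, without Numb, an inhibitor of Notch, and Dtx1, a ubiquitin ligase. Of the glycosylation enzymes, which modify the receptor, 3 of 5 were, with H3K4me3 alone at Poglut1 and no mark at the fringe gene Mfng.

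Among 4 other ligands none was acetylated at its start. Dlk1, Dlk2 and Dner, ligand-like genes outside the classical group, carried H3K4me3 alone, and Dll3 carried neither mark. Among 8 other targets 1 was acetylated, Hes7, which is named here after its values were seen. H3K4me3 alone marked Hes5, Hes6, Hey2 and the feedback inhibitor Nrarp, and neither mark was at Hes2, Hes3 or Heyl. Of the 4 ubiquitin ligases that act in ligand endocytosis, Neurl1b had H3K4me3 alone, and Neurl1a was the one gene of the lists whose start call differed between the oxygen levels, with H3K27ac in normoxia only.

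Condition-specific H3K27ac peaks lay in the windows of 8 of the 54 genes. A hypoxia-only peak was in 6 windows (11.1%, beside 4.7% of coding genes) and a normoxia-only peak in 2 (3.7%, beside 1.15%). At Rbpj, which encodes the DNA-binding partner of the Notch receptors, a pair of hypoxia-only peaks lay in the gene body. They were 6000 and 21500 bp wide, with scores of 63 and 95. They ended 80834 and 55334 bp upstream of the nearest start of the gene's basic transcripts. The annotated gene body reaches back beyond both peaks, to chr5:53466152. The hypoxia-only peaks in the windows of Hes3, Nrarp, Rfng and Hdac1 were each nearer to a neighbour, namely Gpr153, Tor4a, Dus1l and Marcksl1. The normoxia-only peak of 12500 bp at Neurl1a lay 411 bp from one of its starts, and that in the Snw1 window, 500 bp wide, was 83 bp from a start of Alkbh1.

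The labelled cell type was checked on marker genes. Of 12 mesenchymal stromal markers, 9 had H3K27ac at a start in each list and 11 had H3K4me3. Pdgfra, which encodes the sorted antigen CD140a, carried both marks, and Ly6a, which encodes Sca-1, carried H3K27ac without H3K4me3. Nt5e, Eng and Lepr had H3K4me3 alone. None of 8 endothelial and none of 8 haematopoietic markers had H3K27ac at a start. H3K4me3 alone was at Kdr and Cldn5 of the first list, and the start of Ptprc, which encodes CD45, carried neither mark.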

How the data were processed

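ChIP-seq libraries of H3K27ac, H3K4me3 and input were made from mouse bone MSCs at 2% and 21% O2, with 2 libraries per group. Per the methods and the submitters' processing notes, reads were aligned to mm10 with Bowtie2, duplicates were marked with Picard, and enriched bins were called with chromstaR in its differential mode, with 1 list per mark and oxygen level from both libraries. The deposited lists give each peak's position and a score made by the authors, whose definition is not given in the sources used here. Peak ends fell on multiples of 500 bp. Every peak shared by both oxygen lists of a mark had the same ends in each, so equal ends at a gene are not a result about that gene. Read counts and depth are unknown, and the 4 input libraries were not analysed here.

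Peaks were intersected with GENCODE M21 basic genes in Python 3.11.15 with pandas 2.3.3 and numpy 2.4.6, from 1 shared bp. A peak was condition-specific where no base of it was under a peak of that mark in the list of the opposite condition. Interval functions were tested on simulated data. Sequences were read with pysam 0.24.0. The genes, gene lists and calls were chosen with earlier results of these data known. Beyond the 10 members, genes were named where they had a condition-specific peak or lacked a mark at the start, and neighbours where their start was nearest to a peak of a member's window. As alternatives, the flank, the distance from a start, the lowest-scoring peaks, the joining of peaks, the required overlap and the promoter window were changed. Values of some single genes of the lists are not reported here. No test was run.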

Additional observations from a re-analysis of the deposited data

How the results depend on the processing

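Of 74 values recomputed under an alternative, 55 stayed within the range counted as the same and 19 moved. The 55 include changes made by leaving out the lowest-scoring 25% of each list. H3K4me3 was then called at 7 of the 10 starts in place of 9, at each oxygen level. The H3K4me3 peaks in the windows numbered 13 in place of 19, and H3K27ac stayed at 3 starts. With a flank of 5000 bp, 7 H3K27ac peaks were counted in hypoxia and 12 H3K4me3 peaks in each list, and H3K27ac covered 22.7% of the windows in hypoxia and 25.4% in normoxia. With 50000 bp, the H3K27ac peaks numbered 18 in hypoxia and 20 in normoxia, and coverage was 12.1% and 13.2% for H3K27ac and 6.38% for H3K4me3 at either oxygen level. These follow from the length of the windows. Without the lowest-scoring 25% of each list, H3K4me3 covered 7.02% in both, 1 hypoxia-only H3K27ac peak appeared, that over Fam120b in the Dll1 window, and the 2 members with a normoxia-only peak were Notch2 and Hes1 in place of Jag1 and Hes1. The peaks at Notch2 and in the Dll1 window are in both full lists, and a low score removed them from 1 list alone. When peaks of the opposite condition within 1000 bp also disqualified a specific peak, 0 normoxia-only peaks were left, since both touch a shared peak. Within 1000 bp on each side of the start, a longer window, GTGGGAA was in 4 of the 8 matched members, TGGGAA in 7, ACGTG in 6 and CACGTG in 2, beside 36.3%, 85.9%, 68.0% and 27.2% of all promoters. GCGTG stayed at 8 of the 8, beside 74.0%. For genes extended at 1 oxygen level the alternatives were chosen after seeing the data and gave 83 and 64 genes in normoxia and 174 and 234 in hypoxia. No paired analysis and no omission of a library was possible because each list was made from both libraries of its group.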
